A study of Mus musculus with 2 samples.

Results

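The cytoplasmic ribosomal protein genes encode the proteins of the small and large subunits of the ribosome that translates nuclear mRNAs. They were chosen by symbol alone, as the protein-coding genes named Rps, Rpl, Rplp or Rpsa with the usual number and letter endings, so no measured value decides which genes are members. The rule found 84 genes among 43346 genes of the deposited tables, of which 21474 are protein-coding. The small subunit had 32 members and the large subunit 52. Of these, 7 are paralogues of another member (Rpl3l, Rpl7l1, Rpl10l, Rpl22l1, Rpl36al, Rpl39l and Rps27l), and the 77 others are called core members here. Total RNA came from the thymus of newborn B6NCrl mice at postnatal day 0, with no treatment or altered allele named in the labels. Each library held both lobes of 1 pup, the 2 pups were littermates, and their sex was not collected. There is thus 1 group of 2 animals, whose spread mixes differences between pups with those of library preparation.

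Ribosomal proteins assemble with ribosomal RNA in the nucleolus in near-equal amounts, and growing cells such as dividing thymocytes make large numbers of ribosomes. In mice and humans the mRNAs of these proteins begin with a C followed by a run of pyrimidines, the terminal oligopyrimidine or TOP motif, through which mTOR signalling and Larp1 control their translation. Loss of single ribosomal proteins can affect some tissues more than others: loss of Rpl22 in mice impairs alpha-beta but largely spares gamma-delta T cells. Mammalian genomes also carry many intronless copies of these genes, made by reverse transcription of their mRNAs.

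Depth was 39045711 expected counts in replicate 1 and 41576378 in replicate 2. Thymocyte markers were abundant, with 9 of 9 detected, meaning at least 1 TPM in each library, and summed levels of 4367 and 4535 TPM. TPM is a relative abundance scaled for transcript length, so levels of different genes can be set beside each other. All 5 markers of cortical thymic epithelium were detected. Erythroid genes summed to 3104 and 2785 TPM, macrophage genes to 301 and 318 TPM, mesenchymal genes to 316 and 361 TPM and endothelial genes to 73.2 and 71.3 TPM. In bulk tissue, fewer cells of a type and less RNA per cell cannot be told apart, and the part of each cell type in the levels below was not tested.

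The start sites of the members were examined for features that the rule did not use. RefSeq promoter windows (GRCm38.p6, 250 bases before to 50 bases after the annotated start) were found for 64 of the 84 members. A TOP motif, searched as C followed by at least 4 pyrimidines on the gene's strand exactly at the annotated start, was present in 13 of the 64 (20.3%), against 3.01% of 27025 genes with a window. A gene with several annotated starts counted if any of them held the motif. Annotated starts are imprecise by several bases, and within 10 bases of the start the motif was present in 39 members (60.9%), against 34.4% of all genes. The 13 were Rpl14, Rpl15, Rpl28, Rpl35, Rpl35a, Rpl38, Rplp2, Rps6, Rps10, Rps15a, Rps18, Rps21 and Rps27. The windows from 30 bases before to 20 bases from the start are shown for the 6 most abundant of them, with the pyrimidine run in capitals, to show the sequence at the first transcribed base.
Rps18 (chr17:33955646-33955695, minus strand): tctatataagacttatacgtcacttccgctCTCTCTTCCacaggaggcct
Rplp2 (chr7:141447621-141447670, plus strand): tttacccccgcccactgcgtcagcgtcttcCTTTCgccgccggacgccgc
Rpl38 (chr11:114668550-114668599, plus strand): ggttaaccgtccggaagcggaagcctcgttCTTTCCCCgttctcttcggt
Rps10 (chr17:27635225-27635274, minus strand): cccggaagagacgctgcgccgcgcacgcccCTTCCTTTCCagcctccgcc
Rpl35 (chr2:39005112-39005161, minus strand): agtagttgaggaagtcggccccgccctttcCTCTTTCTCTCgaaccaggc
Rpl35a (chr16:33056452-33056501, plus strand): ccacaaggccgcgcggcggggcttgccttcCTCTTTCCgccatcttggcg
The runs were 9, 5, 8, 10, 11 and 8 bases long in that order. Rpl22, Rpl22l1 and Rpl39l have no such run at their annotated start and are shown in lower case throughout. Each of them is among the 39 members with the motif within 10 bases of a start. For Rpl22 that start is not the one printed here.
Rpl22 (chr4:152325696-152325745, plus strand): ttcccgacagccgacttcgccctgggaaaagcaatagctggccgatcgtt
Rpl22l1 (chr3:28805478-28805527, plus strand): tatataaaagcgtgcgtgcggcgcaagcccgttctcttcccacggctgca
Rpl39l (chr16:10170198-10170247, plus strand): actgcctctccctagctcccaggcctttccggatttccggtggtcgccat
In Rpl22l1 the pyrimidine stretch lies just inside the annotated start. None of the 7 paralogues had the motif at the exact start, but Rpl3l, Rpl10l, Rpl22l1, Rpl39l and Rps27l had it within 10 bases of a start.

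Promoter motifs differed in how often the members held them. The motif CCGGAAG, a core that ETS-family factors bind, was found on either strand of the 300-base window in 26 of 64 members (40.6%), against 9.93% of all genes. AAGATGGC, the core of the YY1 motif, was found on either strand in 6 members (9.38%), against 3.19% of all genes. TATAAA on the gene's strand was found in 6 members (9.38%), against 9.77% of all genes. Core members had a median transcript length of 676 nt, against 2329 nt for detected protein-coding genes. The 84 genes lie on 19 chromosomes, with 14 on chromosome 7 and 8 on chromosome 17.

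Ribosomal protein genes were among the most abundant mRNAs of the newborn thymus. Of the 84, 82 were detected (97.6%), against 57.3% of protein-coding genes and 32.2% of all genes. Together they held 9.04% of the TPM in replicate 1 and 9.33% in replicate 2, a mean of 9.19% ± 0.208 (SD, n = 2), and 4.03% ± 0.136 of expected counts, which are not divided by length. They made up 30 of the 100 genes with the highest mean TPM and 54 of the highest 200. In both libraries 69 members exceeded 500 TPM, out of 253 protein-coding genes that did. The median core member had 1021 TPM ± 29.4, against 17.3 TPM for the median detected protein-coding gene. The small subunit's core median was 1135 TPM ± 5.78 and that of the large subunit 918 TPM ± 27.9. The 31 small-subunit core members held 44.5% of core TPM in replicate 1 and 44.3% in replicate 2, and the 46 large-subunit members held the rest. The 10 highest members held 27.5% and 27.4% of all member TPM.

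**Figure D1:**
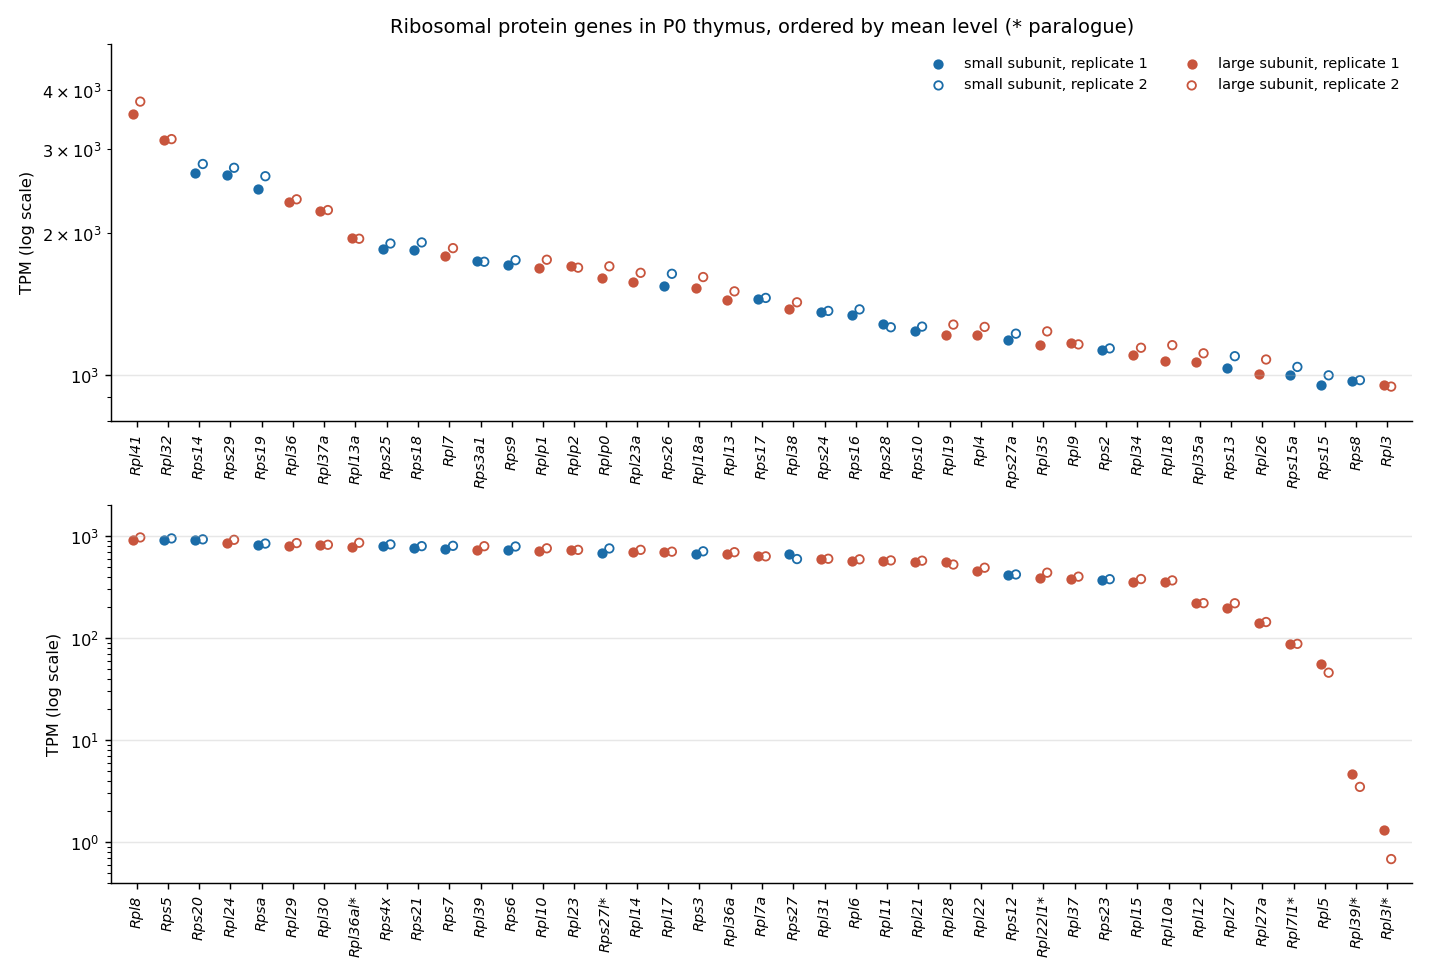
TPM (log scale) of 82 of the 84 ribosomal protein genes, ordered by mean level and split over 2 panels with different axes, with filled points for replicate 1 and open points for replicate 2, blue for the small and red for the large subunit, and asterisks for paralogues; Rpl10l, at 0 in both libraries, is not drawn. Levels fall gradually from Rpl41 to Rpl10a and then drop to Rpl12, Rpl27, Rpl27a and Rpl5, while both libraries lie close together except at the lowest genes.

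The highest member was Rpl41, which encodes the smallest protein of the ribosome, with 3550 TPM in replicate 1 and 3779 TPM in replicate 2. Rpl32, of the large subunit, had 3141 and 3150 TPM. Rps29, whose human counterpart is a Diamond-Blackfan anaemia gene, had 2647 and 2740 TPM. Rps19, the gene most often mutated in that human anaemia, had 2470 and 2630 TPM. Rpl36 and Rpl37a averaged 2333 and 2225 TPM, and 38 members exceeded 1000 TPM in both libraries. Rpl32 lay clear of both its neighbours in the order of levels. Over all 84 members, the ranges of library values overlapped in 50 of 83 neighbouring pairs, so the ranges alone do not rank these. Overlap ignores that both genes were measured in the same libraries. Some overlapping pairs, such as Rps14 and Rps29, kept their order in both libraries. At the low end of the core, Rpl5 had 55.6 and 45.7 TPM, Rpl27a 139.6 and 143.6 TPM, Rpl27 195.2 and 219.2 TPM and Rpl12 220.6 and 219.9 TPM. The highest core level was 72.3-fold the lowest. Within 2-fold of the core median lay 59 of 77 core members, and 10 were below 50% of it. Above these 4 genes, the next core members were Rpl10a with 352 and 367 TPM, Rpl15 with 356 and 379 TPM, Rps23 with 369 and 378 TPM, Rpl37 with 378 and 400 TPM and Rps12 with 413 and 420 TPM. In 7 core members (Rpl18, Rpl26, Rpl29, Rpl39, Rps27, Rpl27 and Rpl5) the CV between the libraries exceeded 5%, and the highest was 13.8% for Rpl5.

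Members were also grouped by their place in the ribosome. In the stalk that recruits elongation factors, Rplp1 had 1685 and 1753 TPM, Rplp2 1704 and 1687 TPM, and Rplp0, which anchors both, 1606 and 1698 TPM. The values of these 3 overlapped, while Rpl12 at the stalk's base was listed far lower. With its copies added, as described below, Rpl12 had 753 and 772 TPM, still below these 3. Rpl11, which with Rpl5 and the 5S ribosomal RNA forms the particle that can bind and inhibit Mdm2, had 568 and 577 TPM. The 8 members around the peptide exit tunnel had a median of 1121 TPM ± 53.5, led by Rpl23a with 1574 and 1645 TPM. The 7 members along the mRNA path of the small subunit had a median of 1135 TPM ± 5.78, from 689 TPM for Rps3 to Rps14, the highest small-subunit member. The 13 genes listed here for human Diamond-Blackfan anaemia, a list that need not be complete, had a median of 1253 TPM ± 16.6 and ranged from Rpl5 to Rps29. Rps6, a target of S6 kinase downstream of mTOR, had 738 and 790 TPM. Rpl38, needed in mice for translation of some Hox mRNAs, had 1383 and 1425 TPM. The 4 X-linked members (Rps4x, Rpl39, Rpl10 and Rpl36a) had a median of 750 TPM ± 37.5 and lay between 682 and 817 TPM.

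Genes for ribosome components whose symbols fall outside the rule were at similar levels. Fau, the fusion that carries a small-subunit protein, had 841 and 835 TPM, and Rps27a, the member fused to ubiquitin, had 1186 and 1224 TPM. Rack1, a scaffold on the small subunit, had 817 and 847 TPM. The 14 translation factors and related genes with TOP mRNAs, each of them detected, had a median of 384 TPM and were led by the elongation factor Eef1a1 with 3360 and 3445 TPM, Tpt1 with 1405 and 1363 TPM and the nucleolar chaperone Npm1 with 742 and 855 TPM. The 14 other initiation and elongation factors had a median of 109 TPM, led by Eif5a with 1734 and 1869 TPM. The 77 genes of the mitochondrial ribosome, which translates mitochondrial mRNAs, had a median level of 100.4 TPM ± 2.10, with every gene detected. The 30 ribosome biogenesis factors had a median of 54.6 TPM, led by nucleolin (Ncl, 378 and 375 TPM), and the 12 RNA polymerase I genes a median of 40.0 TPM. Among 15 regulators, Myc, a transcription factor that raises ribosome production, had 157 and 167 TPM, and Trp53, which responds to free Rpl5 and Rpl11 through Mdm2, had 114 and 137 TPM.

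For Rpl5, Rpl27a, Rpl27 and Rpl12, the lowest core members, copies elsewhere in the genome held over 50% of the counts of gene and copies. Among core members below 50% of the core median, copies held less than that only for Rpl37 (41.9% and 42.1%) and Rpl22 (0.327% and 0.314%). Copies were found by aligning each member's coding sequence (GENCODE M21) to the annotated transcripts, keeping single-exon or pseudogene sequences of at least 90% identity over at least 50% of it on the sense strand. This gave 726 copies for 78 members. They held 15.6% and 15.4% of the counts of members and copies together, and 2.71% and 2.78% of all TPM. Those annotated as pseudogenes held 36.1% and 35.7% of the TPM of all pseudogenes in the tables. The share was uneven: copies held over 50% of a gene's combined counts for 10 members, 20 to 50% for 12, 5 to 20% for 9 and under 5% for 52. These copies were defined after the values were seen, as were the copies named below unless they carry a -ps symbol.

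Rpl5 was the extreme case. Its own gene had 1701 and 1587 counts, whereas Gm15500, a transcribed processed pseudogene (chr7:114705217-114706235) outside any protein-coding gene and identical to Rpl5 over its whole coding sequence of 891 nt, had 21145 and 24021 counts. Copies held 92.6% and 93.8% of the combined counts of Rpl5. For Rps27 they held 86.6% and 88.2%, mostly in Rps27rt (chr9:114982366-114982739), annotated as protein-coding on the strand opposite an intron of Osbpl10, with 19759 and 22116 counts against 3071 and 2953 for Rps27. For Rpl27 the share was 84.0% and 82.5%, over Rpl27-ps3 with 9888 and 11663 counts and Gm11518 with 7685 and 7540 counts, against 3353 and 4077 for the gene. Rps23-ps1 (chr3:37714740-37715164) had 19349 and 20612 counts, against 7142 and 7893 for Rps23. Rpl15-ps3 had 16794 and 19158 counts, against 9305 and 10757 for Rpl15.

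The largest copies were near-perfect matches. Of the 34 copies with a mean of at least 1000 counts, 20 were identical to their parent over the whole coding sequence, 22 lay outside protein-coding genes and 11 lay in introns of protein-coding genes on the opposite strand. Among the 255 rows with -ps symbols, 169 had any count and 47 a mean of at least 50. Rps23-ps1, Rpl15-ps3, Rps6-ps4, Rpl27-ps3 and Rpl10a-ps1 were the highest of these. Reads of identical sequences were divided by the authors' estimate, so whether a copy or its parent was transcribed cannot be told from these tables. The estimate's own uncertainty, the deposited posterior SD of the count, was 8.52% and 7.79% of the count for Rpl15-ps3, 5.35% and 6.01% for Rps27 and 0.193% and 0.177% for Gm15500, and it exceeded 1% for 16 members and 2% for 4.

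**Figure D2:**
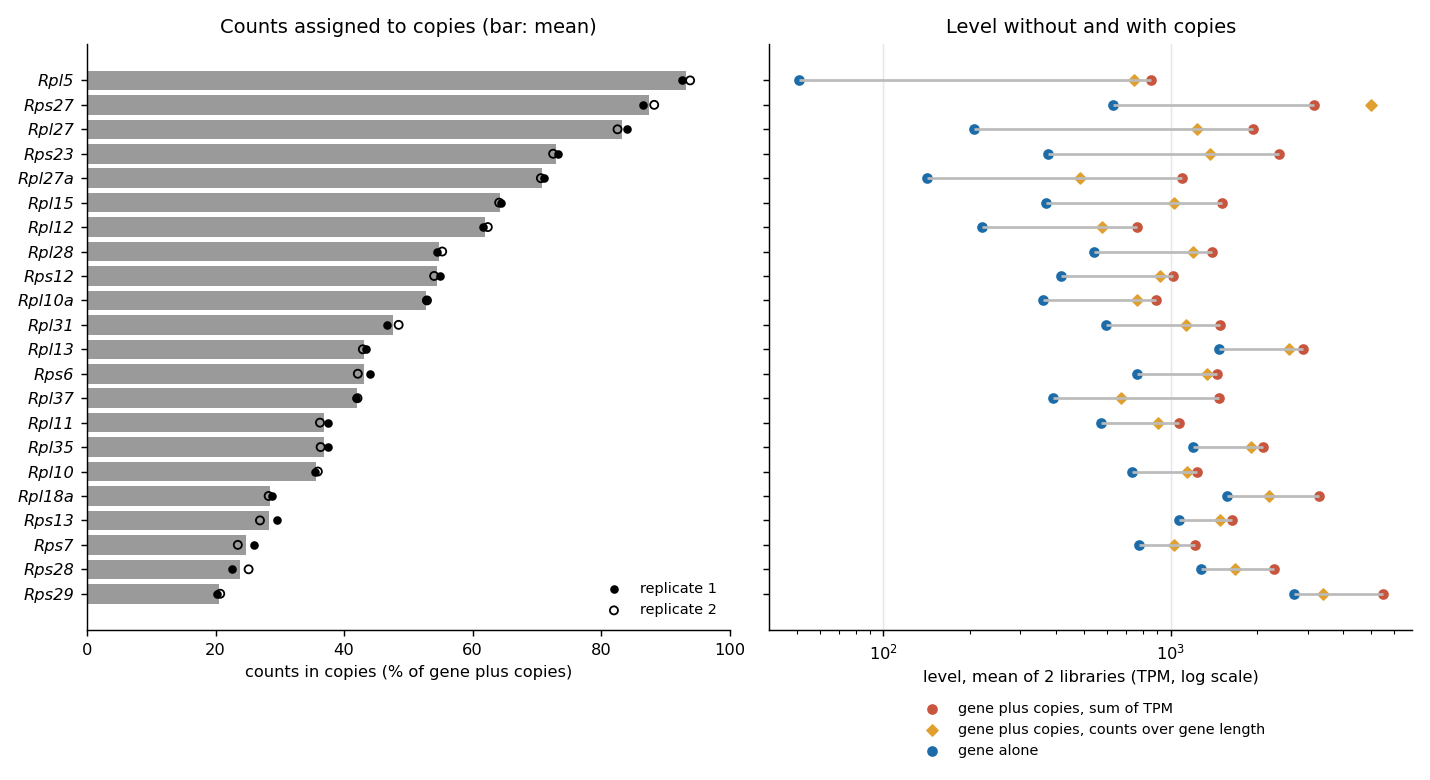
Left, percent of a gene's combined counts assigned to its copies, as the mean (bar) and each library (points), for the 22 members above 20%; right, mean TPM (log scale) of the gene alone (blue), of gene plus copies as a sum of TPM (red) and as counts over the gene's own length (yellow diamonds). Rpl5, at the top, has 93.8% of its combined counts in copies in replicate 2, and its level is 50.7 TPM alone and 852 TPM with copies.

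Adding the copies narrowed the range of levels. With copies summed in TPM, Rpl5 had 836 and 867 TPM, Rpl27a 1078 and 1106 TPM, Rpl27 1925 and 1958 TPM and Rpl12 753 and 772 TPM. The highest core level was then 11.6-fold the lowest in place of 72.3-fold, and the SD of the log2 level over core members was 0.70 in place of 1.02. Members within 2-fold of the core median numbered 68 in place of 59, and 2 in place of 10 lay below 50% of it. The core median was 1315 TPM ± 19.0 with copies. Short copies weigh heavily in such a sum, because TPM is divided by an effective length: Gm14303, a copy of Rps29 with an effective length of 72 nt, had 5768 counts but 2717 TPM in replicate 1. When the combined counts were divided by the parent's own length instead, the range was 10.5-fold, with 66 members within 2-fold of the median and 4 below 50% of it. The lowest core member was then Rpl22, with 476 TPM by the sum and 475 TPM by the parent's length. Copies held 0.327% and 0.314% of its combined counts.  Adding only copies with -ps symbols left Rpl5 lowest at 51.5 TPM and the range at 71.2-fold. Across the 77 core members the Spearman correlation of level with transcript length was -0.37, that of level with the percent of counts in copies -0.45, and that of level between the libraries 0.999. These describe genes within the same 2 libraries, and TPM itself contains length. The percent in copies has the gene's own counts in its denominator, so its negative correlation with level is partly built in.

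Of the 7 paralogues, 3 were listed near the level of their parents and 4 far below it. Rpl22l1, which Rpl22 represses in mouse cells, had 392 and 437 TPM, against 458 and 489 TPM for Rpl22, and thus 46.1% and 47.2% of the pair's TPM. By counts the share was 44.5% (95% Wilson interval 43.6 to 45.5) in replicate 1 and 45.5% (44.6 to 46.3) in replicate 2, intervals that cover counting error only. Rpl36al, an autosomal copy of the X-linked Rpl36a, had 782 and 859 TPM, against 669 and 695 TPM for Rpl36a, or 53.9% and 55.3% of the pair. Rps27l, a target of p53 in human cells, had 682 and 756 TPM, against 668 and 595 TPM for Rps27, or 50.5% and 56.0% of the pair. By counts the share of Rps27l was 72.4% and 76.6%. With the copies of Rps27 added to the parent, the share of Rps27l was 17.8% and 19.3%.

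**Figure D3:**
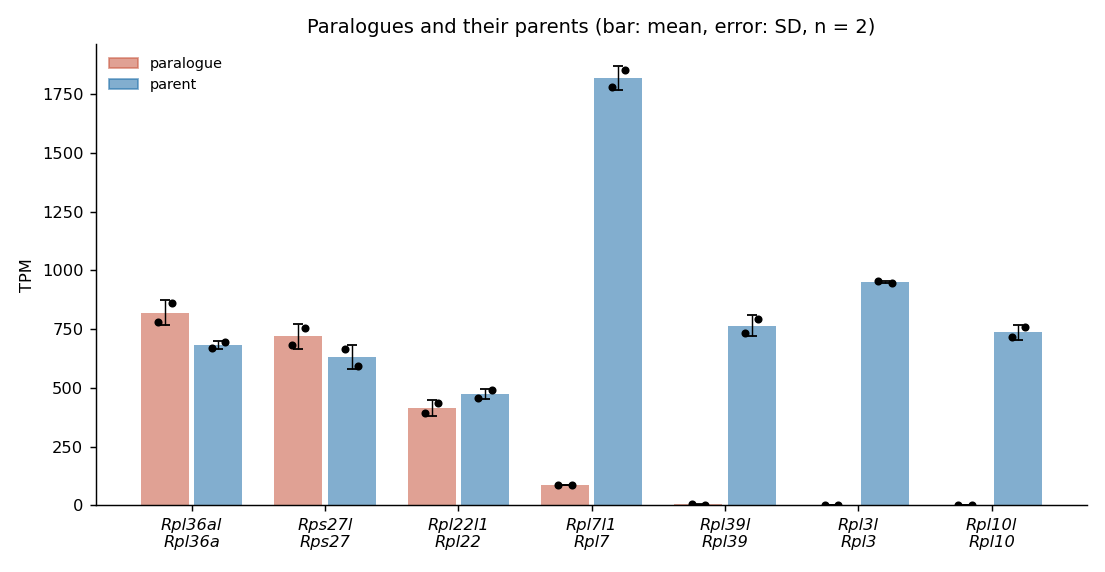
Mean TPM with SD (n = 2) and both library values (points) of each paralogue (red) and its parent (blue), ordered by the paralogue's share. Rpl36al and Rps27l have higher means than their parents, Rpl22l1 lies just below Rpl22, and Rpl39l, Rpl3l and Rpl10l are near or at 0.

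The other paralogues were minor. Rpl7l1 had 87.3 and 87.7 TPM, 4.67% and 4.52% of its pair with Rpl7, but 15.7% and 15.3% of the pair's counts, with a transcript of 2606 nt. Rpl39l, known for its role in mouse spermatids, had 4.65 and 3.47 TPM from 85 and 78 counts, against 733 and 795 TPM for Rpl39. Rpl3l, the form of heart and skeletal muscle, had 1.30 and 0.68 TPM from 40 and 27 counts, which is 0.136% and 0.0718% of its pair. Rpl10l, which replaces X-linked Rpl10 in male meiosis of mice, had 0 counts in both libraries, and 0 counts allow up to 3 per library, or 0.0203% and 0.0178% of the pair's counts. Striated muscle markers, set beside Rpl3l, were detected for 10 of 14 genes and summed to 91.2 and 106.6 TPM, led by Mylpf with 42.0 and 46.5 TPM. Germ cell markers, set beside Rpl39l and Rpl10l, were detected for 2 of 10, summed to 4.01 and 3.04 TPM, and had Tnp1, Prm2 and Tex101 at 0. The part of such cells in these low levels was not tested.

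Coding sequences of the paralogues were 54.4% (Rpl7l1) to 87.7% (Rpl36al) identical to those of their parents, below the 90% required of copies. The pair Rpl39l (chr16:10170226-10174911) and Rpl39 (chrX:37082520-37085402) is shown because the paralogue was near 0 although the coding sequences are 85.0% identical. The 23 differing bases of 153 are in capitals.
Rpl39l: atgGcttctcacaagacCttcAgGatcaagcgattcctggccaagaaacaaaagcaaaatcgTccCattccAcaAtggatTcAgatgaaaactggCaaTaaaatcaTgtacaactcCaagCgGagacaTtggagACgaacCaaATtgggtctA
Rpl39: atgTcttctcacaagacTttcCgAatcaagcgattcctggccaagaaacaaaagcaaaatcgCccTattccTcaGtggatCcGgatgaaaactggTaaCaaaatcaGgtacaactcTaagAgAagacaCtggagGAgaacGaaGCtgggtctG
Rps27l (chr9:66946086-66949516) and Rps27 (chr3:90212522-90213651), a pair whose listed TPM values are close without the parent's copies, differ at 60 of 252 bases, in capitals below.
Rps27l: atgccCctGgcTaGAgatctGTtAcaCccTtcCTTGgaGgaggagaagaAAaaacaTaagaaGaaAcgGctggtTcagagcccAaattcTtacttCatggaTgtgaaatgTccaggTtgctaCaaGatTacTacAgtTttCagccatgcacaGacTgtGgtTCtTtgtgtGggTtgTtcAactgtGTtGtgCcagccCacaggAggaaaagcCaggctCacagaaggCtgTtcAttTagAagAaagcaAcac
Rps27: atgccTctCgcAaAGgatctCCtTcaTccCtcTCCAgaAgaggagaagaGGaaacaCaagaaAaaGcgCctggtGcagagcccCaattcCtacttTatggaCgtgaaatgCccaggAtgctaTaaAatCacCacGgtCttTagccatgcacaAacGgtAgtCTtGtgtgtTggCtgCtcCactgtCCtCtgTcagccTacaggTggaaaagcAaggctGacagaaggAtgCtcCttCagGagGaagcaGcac
The sequences are the coding parts of the GENCODE M21 transcripts (GRCm38), without the stop codon.

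Many members were represented mainly by 1 transcript. Of 374 transcripts of the members, 355 matched GENCODE M21 and carry its names and types below. The leading transcript held at least 80% of the gene's TPM in both libraries for 55 of 83 members with counts. Of these 83, 21 have 1 transcript in the tables, which leaves 34 of 62 with several. It was the same transcript in both libraries for 81. It was annotated as protein-coding for 75 members, as a processed transcript without a coding sequence for 4 (Rpl35, Rps18, Rpl23 and Rpl22l1), as a retained intron for 2 and as a target of nonsense-mediated decay for Rpl12. Rps18-209 held 49.3% and 49.7% of Rps18, Rpl23-204 63.0% and 61.6% of Rpl23 and Rpl22l1-209 43.1% and 45.2% of Rpl22l1. Rpl12-201 held 69.5% and 68.9% of Rpl12. Rps20-201, the highest retained-intron transcript, held 93.2% and 92.7% of Rps20, with 857 and 861 TPM. Rpl5-205, also annotated as a retained intron, held 57.7% and 51.7% of the low TPM of Rpl5. By counts, Rps20-201 held 68.4% and 67.4% of Rps20, and Rpl5-205 held 39.8% and 33.9% of Rpl5. A protein-coding Rpl5 transcript of 2045 nt held 46.3% and 52.5% of the counts of Rpl5. Over all members, transcripts annotated as retained introns held 3.10% and 2.98% of TPM, against 4.53% and 4.05% for all other genes.

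Some transcript shares differed between the libraries. Rpl3l-202 held 44.8% and 93.2% of Rpl3l and Rpl39l-201 held 66.0% and 100% of Rpl39l, both from few counts. Rps24-201 held 76.3% and 75.2% of Rps24 and Rps24-202 held 23.7% and 24.8%. Rpl22-201 held 93.5% of Rpl22 in both libraries. The transcripts Rpl22-204 (2051 nt) and Rpl22-208 (2048 nt) changed places: Rpl22-204 had 52.8 and 1318 counts and Rpl22-208 had 1037 and 1.86 counts in replicates 1 and 2. The division between such transcripts is the authors' estimate. Other members with a divided pool included Rpl38, of which Rpl38-204 held 49.5% and 49.0%, Rps19, of which Rps19-210 held 52.6% and 51.5%, and Rpl7, of which Rpl7-205 held 49.6% and 51.5%.

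Between the littermates the members moved as a narrow block. Ratios are replicate 2 over replicate 1 of TMM-scaled counts with a prior count of 0.5, for genes with a mean of at least 50 counts, and no test is possible with 1 library per pup and no second group. Of 82 members with that depth, 79 were higher in replicate 2 (96.3%), against 53.9% of the 14155 genes. The members' median log2 ratio was 0.10, against 0.02 over all genes. Among genes with a mean of at least 1000 counts, 59.7% were higher in replicate 2, with a median log2 ratio of 0.035. The SD of the log2 ratio was 0.06 over members, against 0.34 over all genes and 0.19 over the 7276 genes with at least 1000 counts. The median change in either direction was 1.07-fold both for members and for those 7276 genes. No set of genes was matched to the members in depth. None of the 82 passed 1.2-fold, a size that 9.74% of genes reached with replicate 2 higher and 13.4% with replicate 1 higher. None passed 1.5-fold, which 1.19% and 3.55% of genes did in those directions, or 2-fold, which 0.198% and 1.16% did. With 5 other settings of scaling or prior count, 70 to 82 members were higher in replicate 2, with 70 as a ratio of TPM and 82 with spike-in scaling. The share of all genes higher in replicate 2 was 42.8% as a ratio of TPM and 48.3% by total counts. It was 56.1% with DESeq2 size factors, 53.9% with a prior count of 5 and 97.5% with spike-in scaling. The members' median exceeded that of all genes by 0.08 on the log2 scale under TMM and also as a ratio of TPM, while the other scalings move every gene alike. Mitochondrial ribosome genes were also mostly higher in replicate 2, 66 of 77 with a median log2 ratio of 0.09, as were 13 of 14 TOP-mRNA translation factors (0.10). So were 13 of 14 other initiation and elongation factors (0.15), 21 of 30 ribosome biogenesis factors (0.10) and 11 of 12 RNA polymerase I genes (0.07). Of the 15 regulators, 7 were higher in replicate 2. Among cell type markers, 9 of 9 thymocyte genes (0.12), 5 of 5 of cortical epithelium (0.15) and 6 of 6 of mesenchyme (0.24) were higher in replicate 2. So were 11 of 11 of striated muscle (0.20) and 6 of 7 macrophage genes (0.12), against 1 of 6 erythroid (-0.09) and 2 of 5 endothelial genes (-0.08). The 1 germ cell marker with that depth was lower in replicate 2 (-0.29). The part of cell makeup in the members' shift was not tested. Over core members the CV of TPM between the libraries had a median of 2.63%, against 6.12% over detected protein-coding genes.

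**Figure D4:**
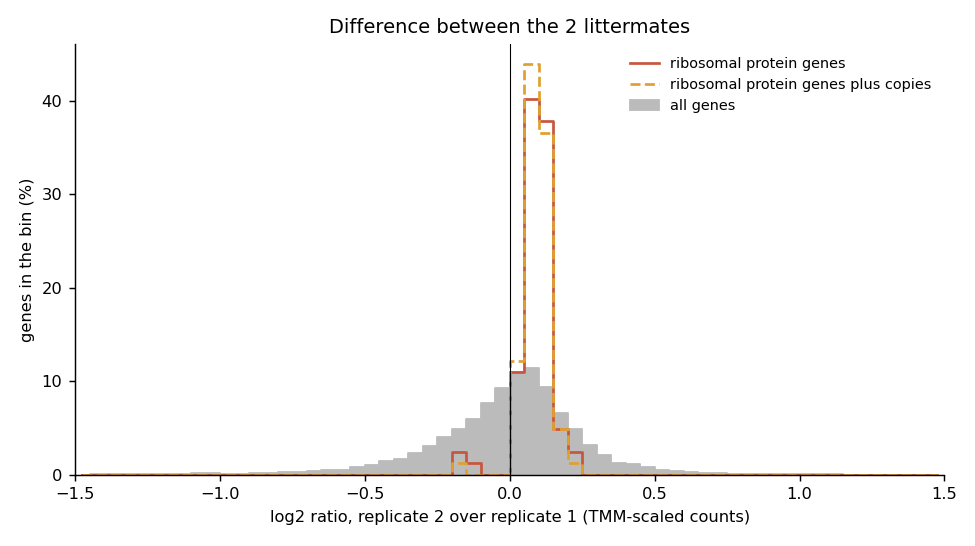
Percent of genes in bins of the log2 ratio of replicate 2 over replicate 1 for 82 ribosomal protein genes (red), the same with copies added (yellow, dashed) and 14155 genes with a mean of at least 50 counts (grey), of which 64 lie outside the axis. Ribosomal protein genes form a narrow peak just above 0 within the wider distribution of all genes, and the small group below 0 is reduced when copies are added.

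Rpl5, Rps27 and Rpl27, the members with the largest shares of counts in copies, were near the ends of this distribution. Lower in replicate 2 were Rpl39l (log2 ratio -0.19, from 85 and 78 counts), Rpl5 (-0.16) and Rps27 (-0.12). The highest ratio was that of Rpl27 (0.22), followed by 3 paralogues, Rpl22l1 (0.20), Rps27l (0.19) and Rpl36al (0.18). With copies added, the log2 ratio was 0.10 for Rpl5, 0.07 for Rps27 and 0.09 for Rpl27, all close to the members' median, and 81 of 82 members were higher in replicate 2. The SD over members was then 0.05. Most combined counts of Rpl5, Rps27 and Rpl27 lie in copies, so their combined ratios are mainly those of the copies. Rpl39l and the 3 abundant paralogues have no copies or copies with at most 1.86% of their combined counts in either library. Adding copies thus could move their ratios only slightly, as for Rpl22l1 from 0.204 to 0.207. Rpl7a-ps11, with 264 counts in replicate 1 and 0 in replicate 2, was past 2-fold, 1 of 47 -ps copies with a mean of at least 50 counts.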

How the data were processed

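The deposited tables give, for each library, expected counts, which the authors deposited as estimated counts that need not be whole, TPM values scaled by the authors for length and library, FPKM values deposited as an alternative length-scaled unit, and the deposited percent that each transcript takes of its gene's TPM. Per the labels, the build is mm10, 10 ng of RNA above 200 nt entered each library, and spike-ins were added. The annotation was M4, per the read-me texts the authors deposited. Which aligner, quantifier and strand setting were used is not given in the sources used here. Symbols, types and coordinates came from GENCODE M21 by identifier (42462 of 43346 genes matched). Left out were 96 spike-in rows, 1 phiX row and 26248 rows with a number as identifier (0.000105% and 0.0000404% of counts).

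Depth and spread limit precision: a gene at 0 counts could have had up to 3, and intervals are 95% Wilson intervals. Spike-ins had 659 and 427 counts. The chi-square statistic per degree of freedom was 19.0 over 17986 genes, so the libraries differ by more than counting error. Ratios used edgeR 4.0.16 (TMM) in R 4.3.3, with DESeq2 1.42.0 size factors as an alternative, after rounding to whole counts, and this step was tested on simulated counts. Copies were found with BLAST 2.17.0. Python 3.11.15, pandas 2.3.3 and matplotlib 3.10.9 were used.

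The design has 1 group, so nothing was tested between groups. The gene family and the lists were proposed with earlier results of these data known, and the members within the family were then taken by symbol. The text may name any member, Fau and Rack1, the 3 highest genes of other lists and those under 1 TPM, the 5 highest -ps copies and any past 2-fold, and transcripts leading with under 80%, the highest retained-intron transcript and those of Rps24 and Rpl22. Copies without -ps symbols were named with their values known. The alternatives changed the unit, denominator, thresholds, scaling, copies and motif rule, and used each library alone. Results of 1 member and of 1 listed gene are not reported here by name.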

Additional observations from a re-analysis of the deposited data

How the results depend on the processing

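Of 112 alternative values, 79 stayed within the SD between the libraries or, for counts, within 1.5 times. For the median log2 ratio the limit was the SD over members. Where the main value is the mean of the 2 libraries, each single-library value lies within their SD by construction and says nothing about stability. Such values are among the 79, as are the counts of members past 2-fold, which were 0 throughout. The share of Rps27l in its pair (53.2%) was 74.5% by counts and 18.6% with the copies of Rps27 added, which puts it below its parent, and adding copies turned the log2 ratios of Rpl5 and Rps27 from negative to positive. The median level of all 84 members was 949 TPM, 721 in FPKM, 428 in CPM, 1021 TPM without the paralogues, 1137 with -ps copies added, 1143 with protein-coding genes as denominator, 1229 with copies by sequence summed and 1131 with their counts over parent length, and 939 to 959 in single libraries. Their share of TPM (9.19%) was 4.03% of counts, 11.1% of protein-coding TPM, 10.2% without mitochondrial genes, Rn7s1, Rn7s2 and Gm42418, 10.2% with -ps copies and 11.9% with all copies, and 9.04% to 9.33% in single libraries. The range over core members (72.3-fold) was 11.6-fold and 10.5-fold with copies and 63.8-fold to 82.6-fold in single libraries. Members with TPM of at least 0.1 numbered 83, and of at least 10, 81 (82 and 83 at 1 in single libraries). The median log2 ratio (0.10) was 0.05 as a ratio of TPM, with 70 of 82 members higher in replicate 2, against 42.8% of all genes. It was 0.79 with spike-in scaling, which moved the median of all genes by 0.69. The median paralogue share (4.59%) was 15.5% by counts and 4.52% to 4.67% in single libraries. Copies with -ps symbols held 6.83% of combined counts, 6.80% to 6.87% in single libraries, and 9.58% of combined TPM. Copies by sequence held 15.5% at 90% identity and 15.1% at 98% identity. TOP motifs at the start (13 members) numbered 39 within 10 bases, and 34 there with at least 5 pyrimidines. Leading transcripts of at least 80% numbered 55 to 58 in single libraries. Alternatives with copies by sequence were chosen after seeing the data. No paired analysis was possible because there is 1 group. Depth limits only Rpl39l, Rpl3l and Rpl10l, and the copies limit what the levels of their parents mean.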
